A study of Mus musculus with 24 samples.

Results

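The genes described here were 10 of the insulin and insulin-like growth factor pathway, from the ligand Igf1 through the receptors Insr and Igf1r to Slc2a4, which encodes the insulin-responsive glucose transporter GLUT4. They were taken by symbol from the 24647 named genes of the array. Where a gene had several transcript clusters, meaning groups of probes that the array reads as 1 transcript, the cluster of highest mean was used. Perigonadal fat of 24 male C57BL/6 mice was measured, 12 Control mice without the transgene (AdipoQ-LpL -/-) and 12 AdipoQ-LPL littermates (AdipoQ-LpL -/+). The transgene places lipoprotein lipase under the adiponectin promoter, which is active in adipocytes. All mice entered calorimetry chambers at 9.5 weeks of age, ate a diet with 60% of calories from fat for 10 days in all, and were housed singly for the last 3 days. No chow-fed mice were on these arrays, so each level below is a level under the high fat diet.

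Insulin binds its receptor on the adipocyte, and the receptor phosphorylates the adaptor proteins IRS1 and IRS2. These recruit phosphoinositide 3-kinase, whose product activates the kinase AKT2. AKT2 phosphorylates TBC1D4, which frees vesicles carrying GLUT4 to move to the cell surface, and it phosphorylates FOXO1, which then leaves the nucleus. Most of this control acts on proteins that are already made, and the arrays read only the mRNA.

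Promoter sequence from RefSeq was at hand for 8 of the 10 genes, all but Insr and Slc2a4. The 250 bases before the start of transcription are shown for Irs1, Irs2, Pik3r1 and Igf1r, because Irs1 and Pik3r1 varied together across mice, and Irs2 and Igf1r, the paralogue of Irs1 and the second receptor, are set beside them. Capitals mark CACGTG, the E-box; TGTTTTG, the core of insulin response sequences that FOXO proteins bind; and GGGCGG, the GC box. Both strands were searched, so a GC box may read CCGCCC, and each sequence runs 5′ to 3′ on the strand of its gene in build GRCm38.p6.
Irs1, chr1:82291440-82291689, minus strand: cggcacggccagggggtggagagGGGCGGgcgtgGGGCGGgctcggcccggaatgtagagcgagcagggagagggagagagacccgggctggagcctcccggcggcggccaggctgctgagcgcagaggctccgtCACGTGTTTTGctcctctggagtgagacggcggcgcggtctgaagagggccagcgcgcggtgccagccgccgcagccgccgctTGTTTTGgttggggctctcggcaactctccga
Irs2, chr8:11008930-11009179, minus strand: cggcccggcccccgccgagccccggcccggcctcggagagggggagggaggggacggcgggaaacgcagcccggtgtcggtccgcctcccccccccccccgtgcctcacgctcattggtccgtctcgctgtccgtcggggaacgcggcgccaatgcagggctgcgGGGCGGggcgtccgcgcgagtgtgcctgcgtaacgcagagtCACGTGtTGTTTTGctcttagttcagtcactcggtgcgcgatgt
Pik3r1, the farther upstream of its start sites, chr13:101768218-101768467, minus strand: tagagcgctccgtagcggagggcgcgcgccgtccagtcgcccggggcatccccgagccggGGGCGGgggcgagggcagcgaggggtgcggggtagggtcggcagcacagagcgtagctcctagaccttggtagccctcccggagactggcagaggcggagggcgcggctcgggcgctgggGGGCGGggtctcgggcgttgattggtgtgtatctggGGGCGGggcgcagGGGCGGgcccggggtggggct
Igf1r, chr7:67952007-67952256, plus strand: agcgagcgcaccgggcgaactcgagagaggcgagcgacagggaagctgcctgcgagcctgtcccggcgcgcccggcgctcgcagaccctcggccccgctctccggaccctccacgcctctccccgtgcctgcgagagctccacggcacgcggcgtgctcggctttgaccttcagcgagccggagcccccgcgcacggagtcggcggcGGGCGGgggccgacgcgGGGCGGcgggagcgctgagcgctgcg
Counted from the 5′ end, the E-box of the Irs1 window began at base 136 and ran into a TGTTTTG that began at base 140, with another TGTTTTG at base 219. In the Irs2 window the E-box began at base 207 and TGTTTTG at base 214. Neither motif was found in the other members' windows. Over all 32851 promoter windows of this length, 6.02% held the E-box, 5.56% held TGTTTTG and 32.7% held the GC box. Both motifs starting within 10 bases of each other, a criterion set after these sequences had been seen, occurred in 7 windows (0.0213%). The FOXO site GTAAACA, present in 3.17% of all windows, was in no member's window. These matches describe the letters only.

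The values are log2 values after robust multi-array averaging (RMA), so a difference of 1 would be a doubling, and levels of different genes are not compared because each gene has its own probes. The arrays fell into 2 ranges of animal number in the labels. Numbers 289 to 437 (5 Control and 8 AdipoQ-LPL mice) had array medians of 6.863 to 6.971, and numbers 842 to 877 (7 Control and 4 AdipoQ-LPL mice) had medians of 7.218 to 7.286. The number range was therefore part of the model, and it is named below as the first or the second range. Within the first range, numbers 289 to 295 held 5 Control and 2 AdipoQ-LPL mice. Numbers 422 to 437 held 6 AdipoQ-LPL mice and no Control. A first-range genotype difference therefore cannot be fully told apart from a difference between these runs of numbers. Control 3, Control 7 and AdipoQ-LPL 8 stood furthest from the other mice of their range over all clusters, with root mean square deviations of 0.4422, 0.3711 and 0.3329. Control 6 followed at 0.3121 and the next mouse lay at 0.2291, so the line after the third is a choice, made after seeing the data, and the values without all 4 are given with the alternatives. All 7 adipocyte markers (Adipoq, Plin1, Cidec, Lep, Fabp4, Retn and Cfd) were well detected, with means of 11.65 to 13.69. None of the marker lists for 10 cell types, among them macrophage, endothelium, mesothelium, skeletal muscle and epididymis, held a gene that was called between genotypes, which says little where 0.0099% of all clusters were. The mean of the 6 epididymis markers was 5.96 in Control 5, 6.75 in Control 6 and 5.93 in Control 9, and 4.08 to 5.10 in all other mice. That of the 4 B cell markers was 7.48 in Control 6 and 7.89 in Control 9, and 5.50 to 6.86 in the others. These are all Control mice, and the part of this in the differences below was not tested. The transgene check was limited, since Lpl itself was not called: with the range in the model it differed by -0.02 ± 0.04 (SE, adjusted p = 0.856, limma). The Control mean was 13.62 ± 0.15 and the AdipoQ-LPL mean 13.53 ± 0.18 (SD, n = 12 each), but these means mix the ranges. Within the first range the Control and AdipoQ-LPL means were 13.48 and 13.41, and within the second 13.73 and 13.76. In whole fat, a lower value can mean fewer cells of a type or less RNA in each, and these cannot be told apart.

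**Figure D1:**
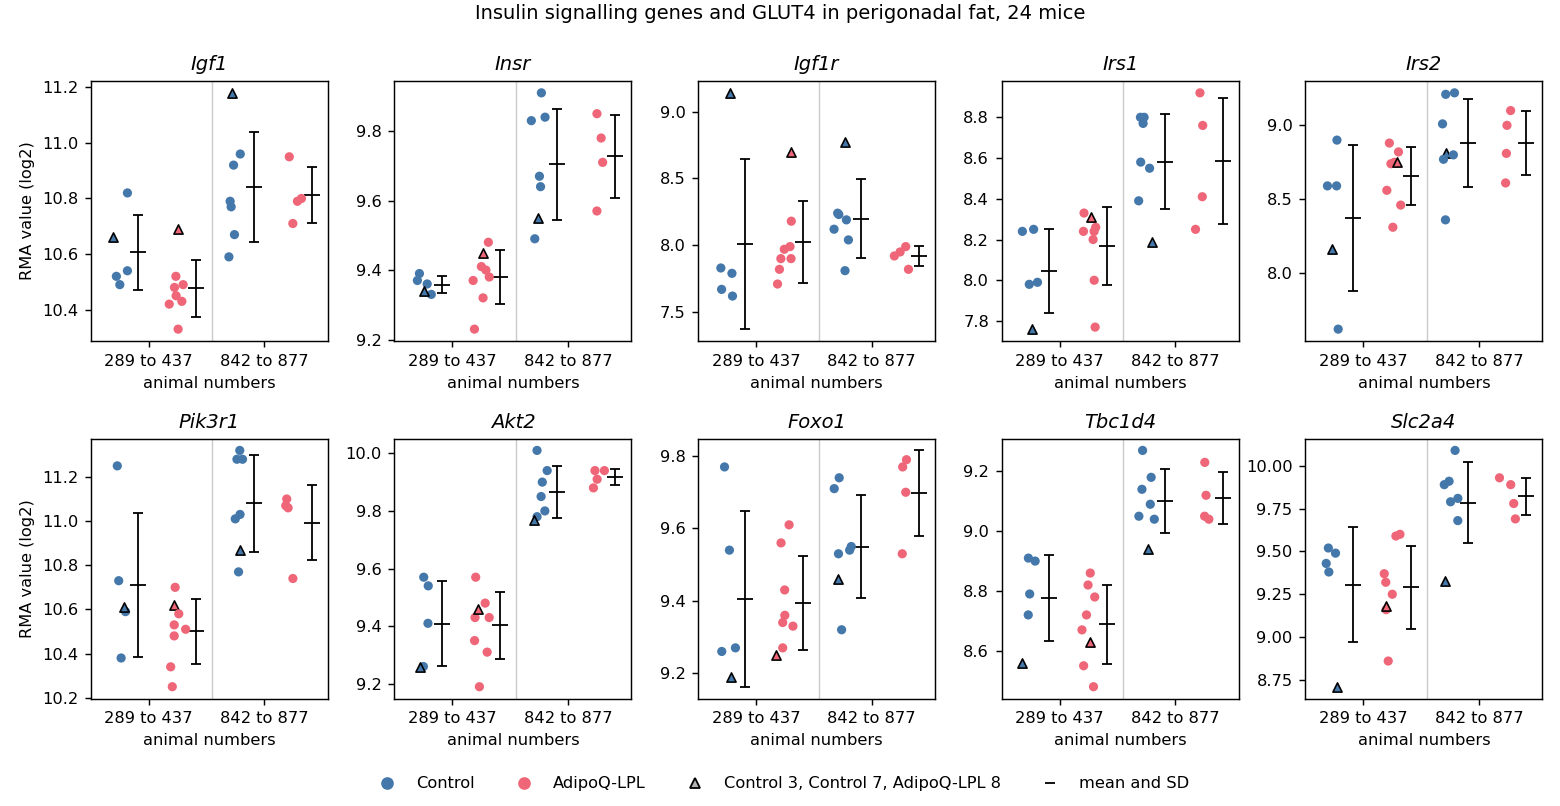
RMA log2 value (vertical axis) of each of the 10 genes in each of the 24 mice, by range of animal number and genotype, with the mean and SD of each group. Triangles are Control 3, Control 7 and AdipoQ-LPL 8. The genotypes overlap for every gene within each range, and Igf1r is highest in the mice drawn as triangles.

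None of the 10 genes differed between genotypes beyond the spread between mice. By limma with the number range in the model, 0 of 10 were called at an adjusted p under 0.05, against a background of 0.0099% of the 20208 clusters tested (2 clusters). None reached an unadjusted p under 0.05 either, against 8.37% of all clusters, or the study's thresholds, a difference of 0.32 on the log2 scale with an unadjusted p under 0.02, against 0.272%. Within the first and the second range alone, 0 of 10 had an exact permutation p under 0.05, against 8.1% and 9.38% of all clusters by limma, and no interaction of genotype with range reached 0.05, against 7.95%. The differences ran from -0.16 for Pik3r1 to 0.16 for Irs2, with a median of 0.01, and 6 of 10 were above 0, where 53.7% of all clusters were. The 95% intervals bounded the fold of AdipoQ-LPL over Control between 0.744 at the lowest, for Igf1r, and 1.333 at the highest, for Irs2.

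Of the ligand and receptors, Igf1, made in fat as well as in liver, ran from 10.49 to 11.18 with a median of 10.72 in the Control mice. It ran from 10.33 to 10.95 with a median of 10.50 in the AdipoQ-LPL mice. The groups overlapped, although 10 of the 12 AdipoQ-LPL animals fell short of the Control mean in their own range. Such counts, given below for Pik3r1 and Tbc1d1 too, have no share over all clusters beside them. Igf1r also had 10 of 12 below and Tbc1d4 had 7. The counts went the other way for Insr, Irs2 and Akt2, each with 9 of 12 above, and Irs1, with 8. Foxo1 and Slc2a4 had 6 on each side. Of the pathway genes named below, Slc2a1 had 11 of 12 below. Igf2r, Pik3ca, Pck1, Sesn1, Rab13 and Ebf1 had only 1 of 12 below. The Igf1 difference was -0.08 ± 0.06 (SE, adjusted p = 0.712, limma), and the first range gave -0.13 (exact permutation p = 0.0684), the second -0.03 (p = 0.827 by the same test). In the first range the Control values were 10.49, 10.82, 10.66, 10.54 and 10.52, and the AdipoQ-LPL values ran from 10.33 to 10.69. Leaving out Control 2, the highest of them, gave -0.05 over both ranges (unadjusted p = 0.385, limma) and -0.078 in the first (exact permutation p = 0.212). Leaving out AdipoQ-LPL 8, the highest of its group, gave -0.16 in that range (exact permutation p = 0.00379), and leaving out Control 1 gave an exact p of 0.0323. The adjusted p over the whole table within that range was 0.662 with all mice.

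Insr, the insulin receptor, was among the most evenly expressed of the 10. It ran from 9.33 to 9.91 with a median of 9.52 in Control and from 9.23 to 9.85 with a median of 9.43 in AdipoQ-LPL mice. In the first range the Control mice lay at 9.33, 9.36, 9.34, 9.39 and 9.37, inside the AdipoQ-LPL range of 9.23 to 9.48. The genotype difference was 0.02 ± 0.05 (SE, adjusted p = 0.889, limma), and its 95% interval bounded the fold to 0.95 to 1.088. It was 0.02 within each range.

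Igf1r, the receptor of insulin-like growth factor 1, was the most variable. Its residual SD of 0.376, after genotype and range, exceeded that of 94.1% of the clusters tested, whose median was 0.158. The Control mice of the first range had 7.83, 7.62, 9.14, 7.79 and 7.67, so Control 3 stood more than 1 log2 unit above the rest. The AdipoQ-LPL mice of that range ran from 7.71 to 8.70 with a median of 7.93, where the highest was AdipoQ-LPL 8. In the second range the Control mice ran from 7.81 to 8.77 with a median of 8.19, the highest being Control 7, and the AdipoQ-LPL mice had 7.99, 7.82, 7.92 and 7.95. The other 21 mice lay between 7.62 and 8.24. Over both ranges the genotype difference was -0.12 ± 0.15 (SE, adjusted p = 0.828, limma).

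Those 3 mice set the sign of the Igf1r difference. Without them it was 0.01 ± 0.07 (SE, adjusted p = 0.978, limma), and without Control 3 alone it was 0.01. Within the first range the difference was 0.01 (exact permutation p = 0.97) with all mice and 0.20 (exact permutation p = 0.0424) without Control 3 and AdipoQ-LPL 8. Those mice had the highest Igf1r of their groups and were set apart after seeing the data, so that p is a description only. Within the second range it was -0.28 (exact permutation p = 0.0909). With each mouse of that range left out in turn it ran from -0.34 to -0.18. The exact permutation p then ran from 0.0143, without Control 12, to 0.217. The difference between the ranges was not called (interaction -0.29 ± 0.30, SE, adjusted p = 0.802, limma).

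The adaptors Irs1 and Irs2 did not separate the genotypes. Irs1 ran from 7.76 to 8.80 with a median of 8.32 in Control and from 7.77 to 8.92 with a median of 8.26 in AdipoQ-LPL mice. They differed by 0.07 ± 0.09 (SE, adjusted p = 0.837, limma). Without the 3 mice that stood apart it was -0.02. Irs2 ran from 7.62 to 9.22 with a median of 8.79 in Control and from 8.31 to 9.10 with a median of 8.75 in AdipoQ-LPL mice. Its difference of 0.16 ± 0.13 (SE, adjusted p = 0.736, limma) came from the first range, at 0.29 (exact permutation p = 0.159), while the second gave 0.00 (exact permutation p = 0.988). The first-range Control values of Irs2 were 8.59, 8.59, 8.16, 7.62 and 8.90, with Control 4 and Control 3 lowest. Leaving out Control 4 brought the difference over both ranges down to 0.05 (unadjusted p = 0.639, limma) and that of the first range to 0.098 (exact permutation p = 0.513), while leaving out Control 5 gave 0.42 there (exact permutation p = 0.0323). The interaction was -0.29 ± 0.25 (SE, adjusted p = 0.758, limma). The clusters used for Irs1, Irs2 and Foxo1 rest on only 3, 2 and 4 markers, against 13 to 24 for the other 7 genes. The dimmer cluster of Irs2 (mean 6.43) has 6 markers and gave a difference of 0.00, so the 0.16 rests on the cluster of 2 markers. That of Irs1 (mean 5.15, 3 markers) also gave 0.00. The difference of the dimmer Foxo1 cluster (mean 6.57, 2 markers) is not given here.

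Pik3r1, the p85 regulatory subunit of phosphoinositide 3-kinase, had the lowest p of the 10 without being called. It ran from 10.38 to 11.32 with a median of 10.94 in Control and from 10.25 to 11.10 with a median of 10.60 in AdipoQ-LPL mice. In the first range the Control values were 10.38, 10.59, 10.61, 11.25 and 10.73 and the AdipoQ-LPL mice ran from 10.25 to 10.70. In the second range the AdipoQ-LPL values were 11.07, 10.74, 11.06 and 11.10, inside the Control span of 10.77 to 11.32 but for AdipoQ-LPL 2. Of the AdipoQ-LPL mice, 11 of 12 lay below the Control mean of their range, which in the first range was raised by Control 4. The difference was -0.16 ± 0.09 (SE, unadjusted p = 0.0887, adjusted p = 0.646, limma). The first range gave -0.21 (exact permutation p = 0.12), the second -0.09 (p = 0.533 by the same test). Without Control 4 it was -0.08 over both ranges (unadjusted p = 0.276, limma) and -0.078 in the first (exact permutation p = 0.398). Leaving out Control 1 gave -0.19 over both (unadjusted p = 0.0385, limma) and -0.29 in the first (exact permutation p = 0.0222), and leaving out Control 11 gave -0.18 over both (unadjusted p = 0.0452, limma). With the number range left out of the model it was -0.26 (unadjusted p = 0.0358, adjusted p = 0.691, limma), the only member under 0.05 in that fit, against 5.63% of all clusters.

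Downstream, Akt2, the AKT kinase that insulin uses in fat, was the most even together with Insr, with a residual SD of 0.109. It ran from 9.26 to 10.01 with a median of 9.77 in Control and from 9.19 to 9.94 with a median of 9.47 in AdipoQ-LPL mice. The 95% interval of its fold was 0.948 to 1.086 (difference 0.02 ± 0.05, SE, adjusted p = 0.903, limma). Foxo1, the transcription factor that insulin keeps out of the nucleus, differed by 0.06 ± 0.07 (SE, adjusted p = 0.805, limma). In the second range its AdipoQ-LPL values of 9.79, 9.53, 9.70 and 9.77 overlapped the Control span of 9.32 to 9.74 and reached just above it (difference 0.15, exact permutation p = 0.106). Leaving out Control 4, at 9.77 the highest of the first range, gave 0.080 there in place of -0.01 and 0.11 over both ranges (unadjusted p = 0.0703, limma). Tbc1d4, the RAB GTPase-activating protein that holds GLUT4 vesicles back, ran from 8.56 to 9.27 in Control and from 8.48 to 9.23 in AdipoQ-LPL mice and differed by -0.04 ± 0.05 (SE, adjusted p = 0.816, limma).

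Slc2a4, the gene of GLUT4, had the smallest estimated difference of the 10 with the number range in the model, though its interval was wider than those of Insr and Akt2. It ran from 8.71 to 10.09 with a median of 9.60 in Control and from 8.86 to 9.93 with a median of 9.48 in AdipoQ-LPL mice. The first-range Control values were 9.43, 9.38, 8.71, 9.49 and 9.52, of which only Control 3 was low. The second-range AdipoQ-LPL values were 9.89, 9.78, 9.69 and 9.93, within the Control span of 9.33 to 10.09, whose lowest mouse was Control 7. The difference was 0.01 ± 0.10 (SE, adjusted p = 0.988, limma), with a 95% interval of the fold of 0.873 to 1.157. The sign was not stable: without Control 3, Control 7 and AdipoQ-LPL 8 the difference was -0.10 (adjusted p = 0.801), and leaving out each of 7 mice in turn also put it below 0.

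**Figure D2:**
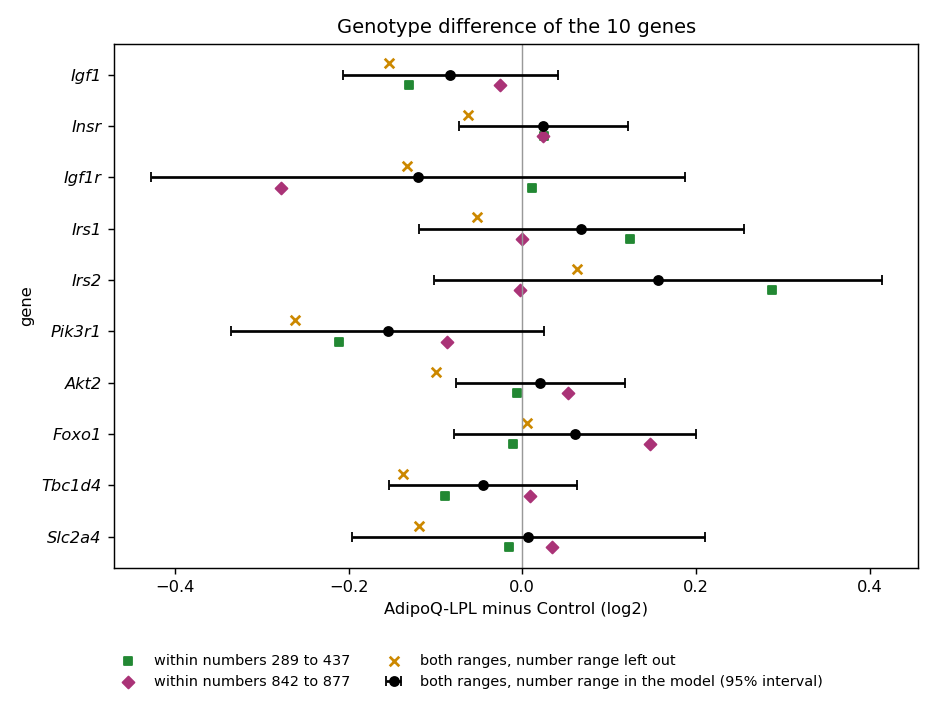
Genotype difference in log2 units (horizontal axis, AdipoQ-LPL minus Control) of the 10 genes (vertical axis). Black points with 95% intervals come from limma with the number range in the model, crosses from the fit without it, and squares and diamonds from each range alone; all 10 intervals include 0.

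Between the ranges of animal number, 9 of the 10 genes were called higher in the second, against 81.9% of all clusters, so the members followed the whole array. Their differences ran from 0.05 for Igf1r, which was not called (adjusted p = 0.745, limma), to 0.50 for Slc2a4, with a median of 0.37 where all clusters had 0.33. After each array had been centred on its median, 0 of 10 were called, against 32.5% of all clusters. Closest to a call was Akt2, at 0.13 ± 0.05 (SE, adjusted p = 0.0535, limma). The largest centred values were -0.30 ± 0.14 for Igf1r (SE, adjusted p = 0.108, limma) and 0.15 ± 0.10 for Slc2a4 (SE, adjusted p = 0.277, limma). With the range left out of the model, the genotype differences of 8 of the 10 genes were below 0, where only 21.1% of all clusters were above 0. The median of all clusters was -0.08 in that fit and 0.01 with the range.

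The wider pathway was read from 8 lists with 105 genes besides the members, of which 102 were tested; Ins1, Ins2 and Irs4 fell below the floor. None was called in either direction. At an unadjusted p under 0.05, 4 were higher and 3 were lower in AdipoQ-LPL mice, which is 7 of 102 where all clusters gave 8.37%. The median difference was 0.01, as over all clusters. With Control 3, Control 7 and AdipoQ-LPL 8 left out, 5 of the 7 no longer lay under 0.05: Pik3ca (p = 0.0528), Pck1 (0.132), Rab13 (0.178), Slc2a1 (0.0509) and Mef2d (0.0604), all unadjusted by limma, while Sesn1 (0.0347) and Tbc1d1 (0.0344) still did. Igfbp2 came under 0.05 when those mice were left out (difference -0.29, unadjusted p = 0.024, limma), from -0.22 with all mice (unadjusted p = 0.0991, limma). The 2 genes of lowest p in each list are given below as values.

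Among ligands and binding proteins 3 of 9 genes were above 0 and 6 below. Igfbp2, which binds insulin-like growth factors, was 7.04 ± 0.58 in Control and 6.61 ± 0.47 in AdipoQ-LPL mice (SD, n = 12; difference -0.22, adjusted p = 0.65, limma). Igfbp3, the main carrier of insulin-like growth factors in blood, had a difference of -0.12 (adjusted p = 0.754, limma). Of the receptor-proximal proteins 8 of 17 were above 0. Igf2r, which takes up and degrades insulin-like growth factor 2, had a difference of 0.07 and Grb14, an inhibitor of the insulin receptor, one of -0.23 (adjusted p = 0.686 and 0.69, limma).

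Of the phosphoinositide enzymes 7 of 11 were above 0. Pik3ca, the p110 alpha catalytic partner of Pik3r1, was 9.71 ± 0.17 in Control and 9.76 ± 0.13 in AdipoQ-LPL mice (SD, n = 12). Its difference with the range in the model was 0.11 ± 0.04 (SE, unadjusted p = 0.0131, adjusted p = 0.513, limma), positive in both ranges, opposite in sign to that of Pik3r1. Pik3cd, the p110 delta subunit that is best known in leukocytes, had a difference of 0.12 (adjusted p = 0.604, limma). Of the AKT and mTOR kinases and regulators 9 of 19 were above 0, and Mlst8, a subunit of both mTOR complexes, and Gsk3a, a kinase that AKT inhibits, had differences of -0.09 and -0.05 (adjusted p = 0.675 and 0.681, limma).

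Of the FOXO factors and genes that FOXO proteins induce, 10 of 11 were above 0, with a median of 0.10, where 53.7% of all clusters were above 0 and their median was 0.01. Pck1, a key enzyme of glycerol phosphate synthesis in fat that insulin represses, was 11.75 ± 0.51 in Control and 12.17 ± 0.31 in AdipoQ-LPL mice (SD, n = 12). Its difference was 0.40 ± 0.17 (SE, unadjusted p = 0.0285, adjusted p = 0.574, limma) and was 0.24 without the 3 mice that stood apart. Sesn1, a stress protein that restrains mTORC1, was 8.76 ± 0.23 and 8.89 ± 0.15 (SD, n = 12). Its difference was 0.19 ± 0.07 (SE, unadjusted p = 0.00754, adjusted p = 0.494, limma), at 0.25 in the first range (exact permutation p = 0.00155) against 0.11 (p = 0.367 by the same test) in the second. Foxo3 differed by 0.01 and Foxo4 by 0.14, neither called. Without the 3 mice that stood apart, Pdk4 turned from 0.06 to -0.05. G6pc, the gene below 0 with all mice, turned from -0.025 to 0.05. Foxo3, Pnpla2 and Ccng2 then lay at 0.005, 0.008 and 0.009. A shift of the list as a whole was not tested.

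Of the GLUT4 vesicle genes 12 of 18 were above 0. Tbc1d1, the paralogue of Tbc1d4, was 7.97 ± 0.40 in Control and 7.64 ± 0.22 in AdipoQ-LPL mice (SD, n = 12). Its difference was -0.24 ± 0.11 (SE, unadjusted p = 0.0372, adjusted p = 0.579, limma), 11 of 12 AdipoQ-LPL animals fell short of the Control mean in their own range, and the second range gave -0.40 (exact permutation p = 0.0394) against -0.12 in the first (exact permutation p = 0.484). Rab13, a small GTPase that TBC1D4 acts on in muscle cells, had a difference of 0.13 (unadjusted p = 0.0367, adjusted p = 0.579, limma), and 0.07 without those 3 mice. Of the other glucose transporters and hexokinases 2 of 8 were above 0. Slc2a1, which encodes the insulin-independent transporter GLUT1, had a difference of -0.17 ± 0.08 (SE, unadjusted p = 0.0464, adjusted p = 0.592, limma), and Slc2a3, which encodes GLUT3, one of -0.10 (adjusted p = 0.849, limma). Of the transcription factors that act on Slc2a4, Mef2d differed by -0.10 and Ebf1 by 0.12 (adjusted p = 0.579 and 0.649, limma).

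**Figure D3:**
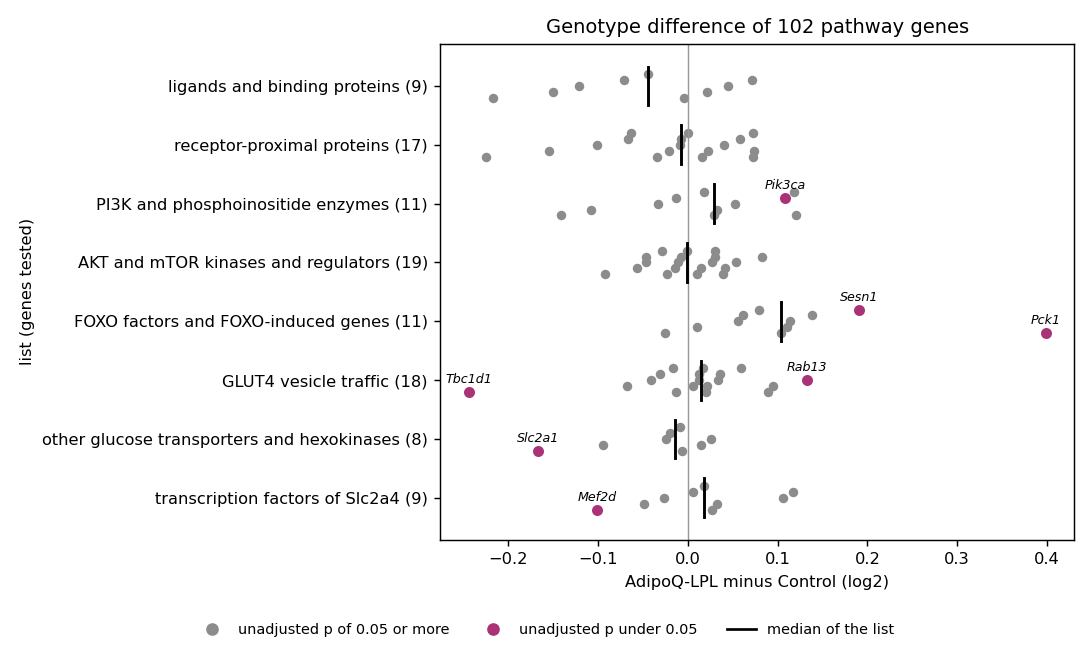
Genotype difference in log2 units (horizontal axis, AdipoQ-LPL minus Control) of 102 pathway genes in 8 lists (vertical axis, genes tested in brackets). Black bars are list medians and coloured points are the 7 genes at an unadjusted p under 0.05, none of which passed the adjusted test.

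Several members varied together across mice, most firmly Insr, Irs1 and Pik3r1. Values were centred within genotype and number range, and each of the 45 pairs was tested with 100000 permutations within those groups. By Pearson's r, 11 pairs had a p adjusted over the 45 pairs under 0.05, of which 9 were positive and 2 negative, and all 11 had the same sign in both ranges. Over all genes tested, the share whose r with 1 gene of a pair was at least as large in size as the pair's own ran from 0.461% (Insr with Irs1, seen from Insr) to 14.0% (Insr with Akt2, seen from Insr) over the 11 pairs. It was 12.3% for Irs1 with Akt2, seen from Irs1, and 10.6% for Insr with Tbc1d4, seen from Tbc1d4. With 13 and 11 mice in the ranges, no pair passed in either range alone. After centring of each array on its median 13 pairs passed, among them all 11, and without Control 3, Control 7 and AdipoQ-LPL 8 only 3 of the 11 did. Leaving out Control 6 as well kept the same 3 pairs.

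Insr and Irs1 had r = 0.744 (permutation p = 0.00013, adjusted p = 0.00585) and rho = 0.821 (permutation p = 2e-05). The correlation was 0.71 in the first range and 0.792 in the second. It was 0.847 without Control 9 and Control 12, the 2 mice of most extreme Insr. Both are of the second range, so their omission does not bear on the first. There AdipoQ-LPL 7 lay lowest against its group mean in both genes (-0.148 for Insr and -0.398 for Irs1). The part of this mouse in the first-range correlation was not tested. Insr and Pik3r1 had r = 0.634 (permutation p = 0.00029, adjusted p = 0.00653) and rho = 0.765 (permutation p = 0.00012), with r = 0.666 without the 2 mice of most extreme Insr. Their r was 0.502 in the first range and 0.819 in the second. Irs1 and Pik3r1 had r = 0.656 (permutation p = 0.00081, adjusted p = 0.0108) and rho = 0.738 (permutation p = 0.00019), with r = 0.591 without the 2 mice of most extreme Irs1. Their r was 0.6 in the first range and 0.739 in the second. A mouse with a high receptor mRNA for its group thus also had high Irs1 and Pik3r1. These were the 3 pairs that still passed without the mice that stood apart, with r = 0.73, 0.597 and 0.627 over 21 mice. Over all genes tested, the r of Insr and Irs1 was matched or exceeded in size by 0.461% of genes seen from Insr and 0.88% seen from Irs1. For Insr and Pik3r1 the shares were 2.77% and 0.944%, and for Irs1 and Pik3r1 2.86% and 0.633%.

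Slc2a4 followed other genes. With Tbc1d4 it had r = 0.69 (permutation p = 0.00096, adjusted p = 0.0108) and rho = 0.533 (permutation p = 0.0137). Without the 2 mice of most extreme Tbc1d4 r was 0.503, and without the 3 mice that stood apart it was 0.496 (permutation p = 0.0741), so the pair rests in part on them. With Igf1r it had r = -0.751 (permutation p = 0.004, adjusted p = 0.03) and rho = -0.607 (permutation p = 0.00784), a size that 6.8% of all genes reached with Igf1r and 2.66% with Slc2a4. Control 3 and Control 7, with the highest Igf1r values, had the lowest Slc2a4 of their ranges, at 8.71 and 9.33. Without the 2 mice of most extreme Igf1r r was -0.668, and without the 3 mice it was -0.414 (permutation p = 0.114), so the relation rests on those mice. The mean of the 7 adipocyte markers was the lowest of its range in Control 3 (12.62, where the first range reached 12.86) and in Control 7 (12.72, where the second reached 13.02), but in the middle in AdipoQ-LPL 8 (12.77). The mean of the 8 macrophage markers was likewise lowest in Control 3 (8.86) and Control 7 (9.28) and in the middle in AdipoQ-LPL 8 (9.46). The T cell, endothelium, mesothelium and skeletal muscle means were also among the 3 lowest of the range in both Control mice. Those of B cell, stromal fibroblast, epididymis and brown or beige adipocyte markers were not. The part of cell makeup, or of the deviation of these mice over the whole array, in these correlations was not tested.

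The other 6 pairs that passed had r of 0.452 to 0.622 or, for Igf1 with Irs1, -0.572 (permutation p = 0.00597; rho = -0.623, permutation p = 0.00448). They joined Insr with Tbc1d4 and Akt2, Akt2 with Tbc1d4 and Irs1, and Pik3r1 with Foxo1. Without the 3 mice none of the 6 passed, but r was no smaller for Pik3r1 with Foxo1 (0.666 from 0.622), Igf1 with Irs1 (-0.578 from -0.572) and Insr with Tbc1d4 (0.545 from 0.53). Irs2 was in no pair that passed by Pearson's r. With Irs1 it had r = 0.358 (permutation p = 0.101, adjusted p = 0.175) and rho = 0.508 (permutation p = 0.0247, adjusted p = 0.0617). With Insr it had r = 0.346 (permutation p = 0.0728, adjusted p = 0.154) and rho = 0.52 (permutation p = 0.0129), which passed by rho (adjusted p = 0.0447). After centring of the arrays both pairs passed by rho (adjusted p = 0.0442 and 0.033), and without the 3 mice neither did (adjusted p = 0.0594 for each). The ranges differed in value, although the difference between them was not tested: Irs2 had r = 0.719 with Irs1 and 0.526 with Pik3r1 in the second range, and 0.059 and -0.582 in the first.

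**Figure D4:**
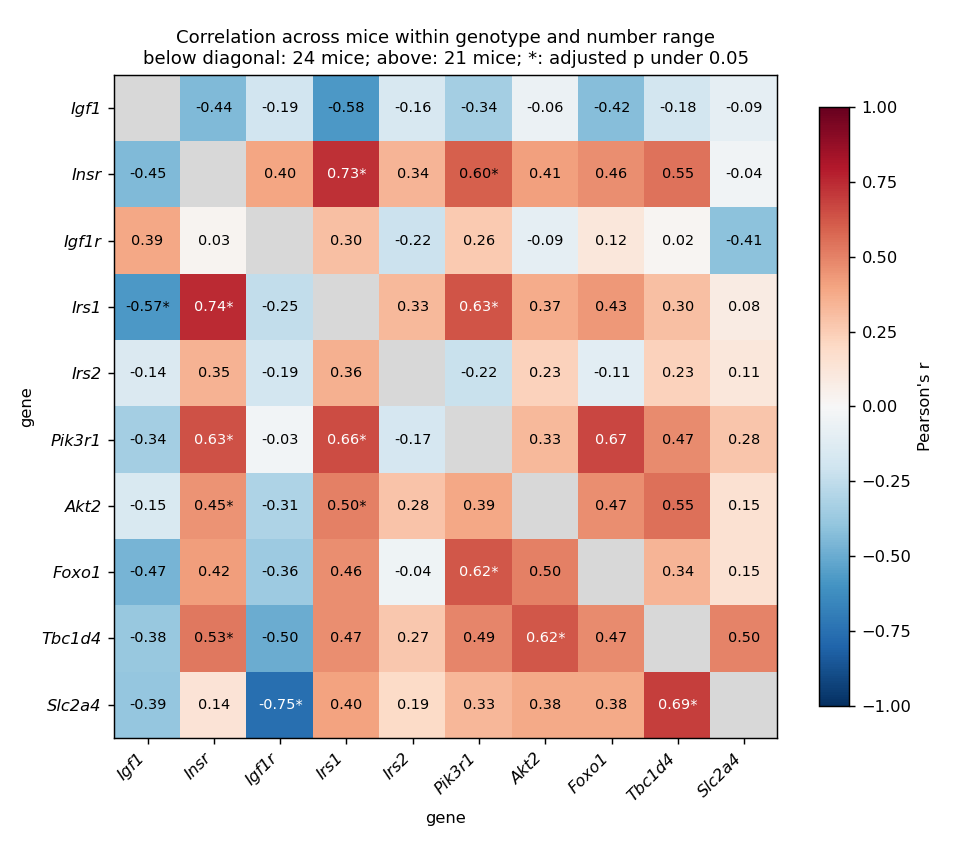
Pearson's r (colour and printed value) between each pair of the 10 genes across mice, after centring within genotype and number range. Cells below the diagonal use 24 mice and cells above it use 21, without Control 3, Control 7 and AdipoQ-LPL 8; stars mark an adjusted p under 0.05, at 11 pairs below and 3 above.

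**Figure D5:**
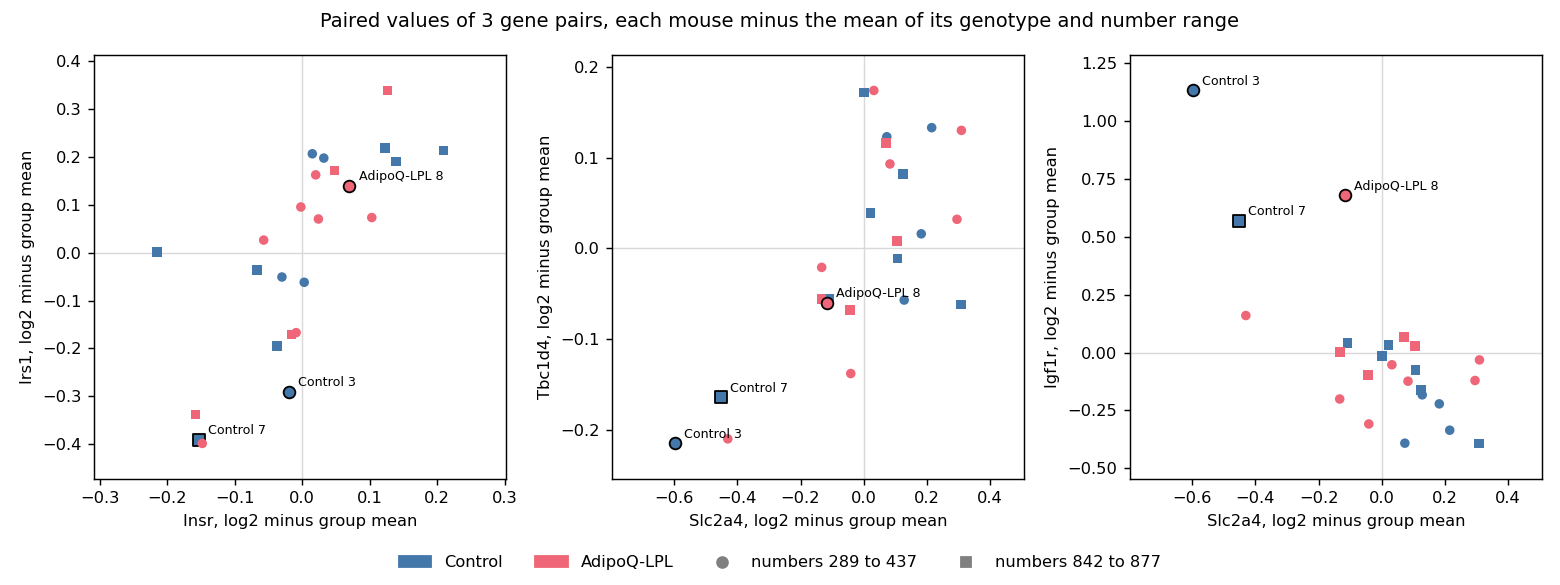
Log2 value minus the mean of the mouse's genotype and number range, for Insr (horizontal) against Irs1, and for Slc2a4 (horizontal) against Tbc1d4 and Igf1r (vertical axes), with 1 point for each of 24 mice. The Insr and Irs1 points rise together over the mice (r = 0.744). Control 3 and Control 7 lie at the upper left of the Igf1r panel, and AdipoQ-LPL 8 lies high but near the middle (Slc2a4 at -0.115).

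For each member the genes of most similar pattern were ranked by the lower of its correlations in the 13 and the 11 mice, over 18642 genes, as a description. Igf1r was closest to Enah, a regulator of actin filaments (r = 0.95 and 0.95), and Nrxn2, a neurexin of nerve endings (0.97 and 0.95). In both ranges 306 genes reached 0.8 and 11 lay at -0.8 or below. Enah was 9.05, 8.50 and 8.38 in Control 3, Control 7 and AdipoQ-LPL 8, and 6.43 to 7.76 in the others. Slc2a4 was closest to Sh3glb2 (0.86 and 0.88) and Nfu1, a mitochondrial iron-sulfur cluster protein (0.85 and 0.88), with 6 genes at 0.8 or above and 72 at -0.8 or below in both ranges. All these counts include Control 3, Control 7 and AdipoQ-LPL 8, and the part of those mice in them was not tested.

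The other members had few close companions, between 0 and 13 genes at 0.8 in both ranges. Insr was closest to Sfxn1, a mitochondrial serine carrier (0.87 and 0.84), and Ndufa7, a subunit of respiratory complex I (0.81 and 0.87). Irs1 was closest to A530020G20Rik (0.87 and 0.93) and to Sik2, a kinase abundant in adipocytes (0.86 and 0.86). Pik3r1 was closest to Acacb, the acetyl-CoA carboxylase of the mitochondrial surface (0.84 and 0.88), and Ubr2, a ubiquitin ligase (0.77 and 0.81). Irs2 was closest to Rasa2, a RAS GTPase-activating protein (0.86 and 0.94), and Sash1 (0.84 and 0.86). Tbc1d4 was closest to Nr3c1, the glucocorticoid receptor (0.83 and 0.82), and Tspo (0.81 and 0.81). Akt2 was closest to 2310016M24Rik (0.83 and 0.86) and Mccc1, an enzyme of leucine breakdown (0.79 and 0.82). Foxo1 was closest to E030003E18Rik (0.86 and 0.91) and Galntl2 (0.83 and 0.85), and Igf1 to Cd274, which encodes PD-L1 (0.83 and 0.79), and Ret, a receptor tyrosine kinase (0.78 and 0.80).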

How the data were processed

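Perigonadal fat RNA of 24 mice was read on 1 array each. RMA and Partek were used by the authors, whose deposited matrix gives 41345 transcript clusters as log2 values; their versions, the build and the annotation are not given. The deposited workbook pairs clusters with symbols and marker numbers (27037 clusters, 24647 genes); its columns of the authors' comparisons (group means, p-values, ratio, fold change and scores) were not used, nor was any column of no sample.

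Clusters that had a symbol and a genotype mean of 5 or more (20208, 18665 genes) entered a two-sided test in limma 3.58.1 (R 4.3.3, statmod 1.5.0), with genotype and animal number range as terms and Benjamini-Hochberg adjustment over all clusters at 0.05. The methods name no covariate, so the fit without the range is given as an alternative. Differences are AdipoQ-LPL minus Control, and groups follow the labels. Within ranges, each member was tested by an exact permutation test (1287 and 330 relabellings). Correlations and permutations used Python 3.11.15, numpy 2.4.6, scipy 1.17.1 and pandas 2.3.3; figures used matplotlib 3.10.9. The fit and the correlation test were tested on simulated data.

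The members, the lists, the rules and the use of the range were chosen with earlier results of these data known. Named genes were the 10 members, Lpl, the 2 genes of lowest p in each of 8 pathway lists and the 2 genes most like each member. Foxo3, Foxo4, Pdk4, G6pc, Pnpla2 and Ccng2 were named after their values had been seen. Omission of Control 3, Control 7 and AdipoQ-LPL 8, alone and with Control 6, was added after seeing the data. No 2 arrays were duplicates (highest correlation 0.9926). Precision is limited by the number of arrays, and the mice are separate animals.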

Additional observations from a re-analysis of the deposited data

Results flagged for a closer look

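Of 40 groups of mice (10 genes, genotype and number range), 4 held a mouse whose gap to the nearest other, relative to the group's span, passed Dixon's 95% critical value, where chance flags about 1 in 20 groups. Igf1r was 9.14 in Control 3 against 7.83 in the next Control mouse of the first range. Igf1r was 8.70 in AdipoQ-LPL 8 against 8.18 in the next AdipoQ-LPL mouse of that range. Slc2a4 was 8.71 in Control 3, the lowest of its group, with the nearest at 9.38. Pik3r1 was 10.74 in AdipoQ-LPL 2, the lowest of the second-range AdipoQ-LPL mice, with the nearest at 11.06.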

How the results depend on the processing

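No member was called between genotypes at an adjusted p under 0.05 under any alternative (no floor, a floor of 6, an intensity trend with a robust prior, array weights, centring, quantile normalization, runs of animal numbers as a block, the range as a random block, either replicate block, the methods' t-test, another cluster of the gene, or omission of mice). Without the range, the signs turned for Insr (-0.063), Irs1 (-0.052), Slc2a4 (-0.12) and Akt2 (-0.100), with the same values by the methods' t-test and with the replicate block without the range. Array weights turned Slc2a4 to -0.061. Without Control 3, Control 7 and AdipoQ-LPL 8, Irs1 (-0.015), Slc2a4 (-0.096), Akt2 (-0.0086) and Igf1r (0.013) turned. With Control 6 left out too, these (-0.038, -0.095, -0.020 and 0.022) and Insr (-0.0015) turned. The cause of these turns was not tested.

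Clusters at the study's thresholds of fold and p numbered 55 in the main model, 118 without the range, 136 with the runs as a block, 84 with the replicate block without the range, 91 with no floor and 112 without the AdipoQ-LPL mice numbered 422 to 437. Clusters at an adjusted p under 0.05 numbered 2, but 1 with a floor of 6, 1 by the methods' t-test and 0 with the replicate block without the range. Deviations of same-numbered mice correlated from -0.43 to 0.26, above 0.1 in 6 of 12 pairs. Differently numbered mice were not set beside them, so these values do not settle whether replicate numbers pair the mice.

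Centring of each array left the differences between ranges at -0.0033 for Insr, -0.13 for Foxo1, -0.068 for Igf1 and -0.30 for Igf1r, all reversed, and at 0.13 for Irs1, 0.022 for Irs2, 0.15 for Slc2a4, 0.077 for Pik3r1, 0.13 for Akt2 and 0.021 for Tbc1d4, none called. It turned the interaction of Insr to 0.022. Within the first range, omission of the mice numbered 422 to 437 turned Igf1r (-0.11), Akt2 (0.023) and Slc2a4 (0.073). Without the 3 mice that stood apart, Igf1 (-0.15) and Igf1r (0.20) passed an unadjusted exact p of 0.05 in the first range, and Igf1 (0.031), Insr (-0.0019), Irs1 (-0.065), Tbc1d4 (-0.019) and Slc2a4 (-0.042) turned in the second. No share of all clusters is given for this subset, where 8.1% were under 0.05 by limma with all mice of the first range. The first-range mice left out, Control 3 and AdipoQ-LPL 8, had the highest Igf1r of their groups. With Control 6 left out too, the same first-range values (-0.15 and 0.20) passed, and Igf1 (0.066), Insr (-0.014), Irs1 (-0.12), Tbc1d4 (-0.026) and Slc2a4 (-0.035) turned in the second. Correlations that no longer passed without them were Igf1 with Irs1 (-0.578), Insr with Akt2 (0.411) and Tbc1d4 (0.545), Igf1r with Slc2a4 (-0.414), Irs1 with Akt2 (0.373), Pik3r1 with Foxo1 (0.666), Akt2 with Tbc1d4 (0.55) and Tbc1d4 with Slc2a4 (0.496); with Control 6 left out too they were, in that order, -0.512, 0.39, 0.54, -0.417, 0.318, 0.686, 0.547 and 0.503.

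With each mouse left out in turn, the genotype difference ranged from -0.18 to 0.015 for Igf1r and -0.068 to 0.041 for Slc2a4, and no other member turned. Counts ranged from 36 (without Control 3) to 98 (without Control 1) at the study's thresholds, with 86 without AdipoQ-LPL 2 and 85 without AdipoQ-LPL 8, and from 2 to 4 at the adjusted threshold, 4 without AdipoQ-LPL 8 or Control 10. Within the first range the differences ranged from -0.043 to 0.035 for Akt2, -0.066 to 0.080 for Foxo1, -0.16 to -0.078 for Igf1, -0.087 to 0.29 for Igf1r, 0.098 to 0.42 for Irs2, -0.29 to -0.078 for Pik3r1, -0.16 to 0.046 for Slc2a4. Within the second they ranged from -0.073 to 0.031 for Igf1, -0.34 to -0.18 for Igf1r, -0.018 to 0.076 for Insr, -0.11 to 0.11 for Irs1, -0.089 to 0.089 for Irs2, -0.042 to 0.085 for Slc2a4, -0.03 to 0.037 for Tbc1d4. The interval of Igf1r, the widest of the 10 on the log2 scale with a standard error of 0.1491, reached down to a fold of 0.744; the standard error was 0.0718 without the 3 mice that stood apart.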
